A study of Mus musculus with 12 samples.

Results

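The interaction between genotype and retinoic acid (RA) was measured in TT2, an embryonic stem (ES) cell line of the mouse, by asking for every transcript whether RA moved it to the same extent with and without Rlf and Zfp292. The contrast used all 12 of the 12 RNA-seq libraries of the series, in 4 groups of 3 libraries. Wild-type cells (WT) and cells of genotype Rlf/Zfp292 KO (double knockout, DKO) were each grown in ES medium with serum replacement, FBS and LIF (serum/LIF), and for 72 h in the same medium without LIF and with 5 µM RA. Every RA library therefore also came from cells without LIF, in both genotypes, so RA and the loss of LIF cannot be told apart. All groups share the TT2 background. The labels call the 3 libraries of a group biological replicates and do not say whether the DKO libraries came from 1 clone or several, so p-values measure the spread between these libraries.

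RA enters the nucleus and binds its receptors (RARs), which sit on DNA as partners of RXRs and switch genes on when the ligand arrives. In ES cells RA ends the pluripotent state, induces Hox genes and the enzymes that clear RA, and steers many cells towards neural progenitors. LIF, acting through STAT3, holds ES cells in the naive pluripotent state. RLF and ZFP292 are large zinc finger proteins, and the title of the series links them to bivalent genes, which carry both activating and Polycomb histone marks, and to CoREST, a corepressor complex with the demethylase LSD1 and histone deacetylases that REST brings to neuronal genes.

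Values are normalized counts, which are reads divided by a size factor of the library. The interaction is the RA response of DKO minus the RA response of WT on the log2(normalized count + 1) scale, which equals the difference between genotypes with RA less the one without it. A positive interaction means that RA raised a transcript more, or lowered it less, in DKO, and a negative one the reverse. Values on this scale carry their SE (standard error) from limma, with 3 libraries per group, and means carry the SD over 3 libraries. Calls used an adjusted p (Benjamini-Hochberg, limma) under 0.05.

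Libraries held 30869766 to 40236799 reads in genes and 2164824 to 3121854 in repeats. A single library stood apart. In replicate 2 of WT after RA, rRNA-class repeats took 41.7% of repeat reads, against 4.14% to 7.28% in the other libraries, and results are given without it below where it changes them. In WT, Rlf had 3701, 3621 and 3509.6 normalized counts without RA and 2627, 2472 and 2733 with it, against 0, 3.52 and 3.38 (serum/LIF) and 0.948, 0 and 0 (RA) in DKO. Zfp292 had 0 reads in all 6 DKO libraries, against 4652 to 5273 normalized counts in WT without RA and 2859 to 3566 with it. Both targeted transcripts were thus at or near 0 in every library labelled DKO. Neither was called for the interaction, with −0.65 ± 0.63 for Rlf (limma adjusted p = 0.479) and 0.64 ± 0.31 for Zfp292 (adjusted p = 0.127; 0.00271 with limma without trend and robust, and 0.0222 with a pseudocount of 5). Rlf passed without replicate 1 of DKO in serum/LIF (−1.36, limma adjusted p = 0.00299). The ES cell marker Pou5f1 fell from 33444 ± 730.3 to 428 ± 34.4 normalized counts in WT with RA, and the RA target Cyp26a1, whose enzyme clears RA, rose from 66.7 ± 8.28 to 18229.8 ± 254.

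The 5 genes below show the main shapes that a dependence on genotype took, and their promoters are shown so that the sequence ahead of each start site can be read beside its response. Dbx1 (chr7:49631499-49636835, minus strand) encodes a homeodomain factor of interneuron progenitors in the neural tube. Fabp7 (chr10:57784923-57788450, plus strand) encodes the brain fatty acid binding protein of radial glia. Tfcp2l1 (chr1:118627945-118685168, plus strand) encodes a transcription factor of naive pluripotency, and Etv5 (chr16:22381313-22439570, minus strand) an ETS factor downstream of FGF and ERK signalling. Nlrp4a (chr7:26435113-26476142, plus strand) belongs to the NLR family, with close copies that are active in oocytes. Gene positions are those of the deposited table (mm10). The 250 bases before each start site are from RefSeq (GRCm38.p6), read 5′ to 3′ on the strand of the gene, with each CG in capitals, the dinucleotide that DNA methylation acts on.

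Dbx1, chr7:49636836-49637085, minus strand: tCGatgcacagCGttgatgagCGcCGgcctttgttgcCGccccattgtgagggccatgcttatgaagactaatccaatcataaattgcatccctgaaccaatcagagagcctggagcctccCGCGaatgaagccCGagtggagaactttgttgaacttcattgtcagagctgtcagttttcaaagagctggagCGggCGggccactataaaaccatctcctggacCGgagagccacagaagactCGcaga

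Fabp7, chr10:57784673-57784922, plus strand: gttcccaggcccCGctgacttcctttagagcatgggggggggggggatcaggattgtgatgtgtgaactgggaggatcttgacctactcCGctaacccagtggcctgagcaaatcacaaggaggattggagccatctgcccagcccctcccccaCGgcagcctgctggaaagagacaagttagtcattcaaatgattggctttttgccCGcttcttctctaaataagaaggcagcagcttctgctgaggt

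Tfcp2l1, chr1:118627695-118627944, plus strand: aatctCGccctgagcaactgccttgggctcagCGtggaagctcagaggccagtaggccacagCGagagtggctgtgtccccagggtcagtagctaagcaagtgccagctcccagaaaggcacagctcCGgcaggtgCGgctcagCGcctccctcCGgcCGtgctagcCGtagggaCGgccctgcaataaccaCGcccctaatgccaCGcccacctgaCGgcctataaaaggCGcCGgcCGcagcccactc

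Etv5, chr16:22439571-22439820, minus strand: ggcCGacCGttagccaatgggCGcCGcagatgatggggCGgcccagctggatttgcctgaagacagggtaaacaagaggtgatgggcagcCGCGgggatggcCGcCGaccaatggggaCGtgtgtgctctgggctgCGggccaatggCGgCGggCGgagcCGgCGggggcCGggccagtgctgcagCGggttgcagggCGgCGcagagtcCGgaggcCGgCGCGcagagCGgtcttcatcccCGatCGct

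Nlrp4a, chr7:26434863-26435112, plus strand: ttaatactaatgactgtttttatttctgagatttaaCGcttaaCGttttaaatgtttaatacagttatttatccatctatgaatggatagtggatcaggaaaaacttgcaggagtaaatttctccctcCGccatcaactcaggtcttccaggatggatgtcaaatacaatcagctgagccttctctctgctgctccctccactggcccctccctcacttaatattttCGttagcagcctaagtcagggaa

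CG content differed widely among them, with 27 CGs in the Etv5 stretch, 16 in Tfcp2l1, 12 in Dbx1 and 4 each in Fabp7 and Nlrp4a. The median over 12088 promoters of tested genes was 15 (quartiles 9 and 22). The letters AGGTCA, searched on both strands as the core of a nuclear receptor site, occurred once in the Fabp7 stretch and not in the other 4, and 10.5% of the 12088 promoters held them. A match in this window is a description of the letters only. No comparison of CG content between gene sets is drawn here, since promoters were missing to unequal extents. One was at hand for 72.5% of the genes with an interaction of 1 or more and 68.7% of those with −1 or less. Over all genes tested the share was 76.7%.

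Genotype changed the RA response of 4852 of 15750 genes tested (30.8%; limma), 2328 positive (14.8% of genes tested) and 2524 negative (16%). Most of these interactions were small. The median size was 0.49 on the log2 scale, 706 were 0.25 or less, 1782 lay between 0.25 and 0.5, 1171 between 0.5 and 1, 801 between 1 and 2, and 392 were over 2. The 1193 interactions of size 1 or more (7.57% of genes tested) leaned to the negative side, 739 (4.69%) against 454 (2.88%). Without replicate 2 of WT after RA, 4596 genes were called, and 477 positive and 649 negative interactions had a size of 1 or more. The median over all genes was 0.00088, but scaling by size factors tends to place this centre near 0. It is therefore no independent reference for the tilt. With equal totals in place of the size factors the median was −0.025, and 433 positive and 775 negative interactions had a size of 1 or more. In bulk samples such as these, fewer cells of a type and less RNA per cell cannot be told apart.

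**Figure D1:**
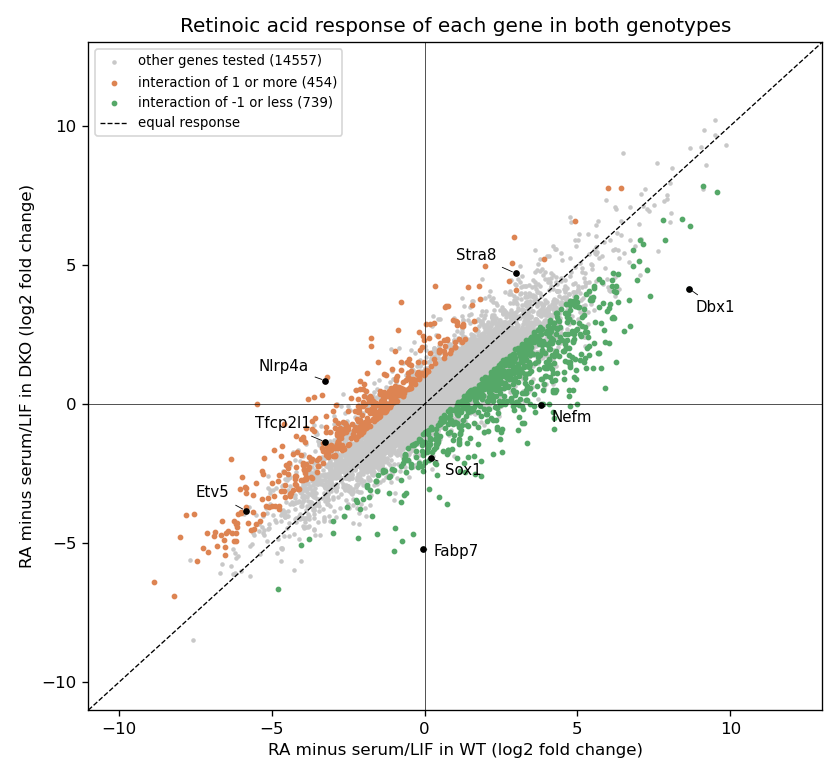
RA response of each of 15750 genes in WT (x axis) and in DKO (y axis), both as log2 fold changes of RA against serum/LIF, with the line of equal response dashed. Points in colour are called genes with an interaction of 1 or more (454, orange, above the line) or −1 or less (739, green, below it). Most green points lie where WT rose, as Dbx1 and Nefm do, and most orange ones where WT fell, as Etv5 and Tfcp2l1 do.

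Read as RA responses, the most frequent shape was a smaller response in DKO. RA changed 12695 genes in WT (80.6%) and 12340 in DKO (78.3%). Of the 1193 large interactions, 614 (51.5%) were genes that RA moved the same way in both genotypes but less in DKO, of which 400 were rises and 214 falls. The reverse, a larger response in DKO, was seen for 80 genes, 39 rises and 41 falls. A further 276 responded in WT only, 165 rising and 111 falling, and 122 in DKO only, 48 rising and 74 falling. RA moved 98 genes in opposite directions, 57 of them up in WT and down in DKO, and 3 passed in neither genotype. Over all 4852 called genes the smaller response in DKO took 49.8%, with 2418 genes, and the larger response 883.

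Read as genotype effects, the same genes split in another way. DKO differed from WT for 5230 genes in serum/LIF (33.2%) and 6727 after RA (42.7%). Among the 1193 large interactions, 408 genes differed after RA only, 191 higher and 217 lower in DKO. For 337 genes the difference was called in serum/LIF only, with 234 higher and 103 lower in DKO there. In 255 genes the genotype effect changed sign, and 166 of these were higher in DKO in serum/LIF and lower after RA. Differences of one sign in both conditions grew in 77 genes and shrank in 57, and 59 passed in neither condition. A difference called in 1 condition only was not the same as an interaction. Of 6125 genes called for genotype in 1 condition only, 3279 were called for the interaction and 2846 were not. Of 2916 genes called in both conditions, 1352 were called for the interaction, and 670 had opposite signs.

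**Figure D2:**
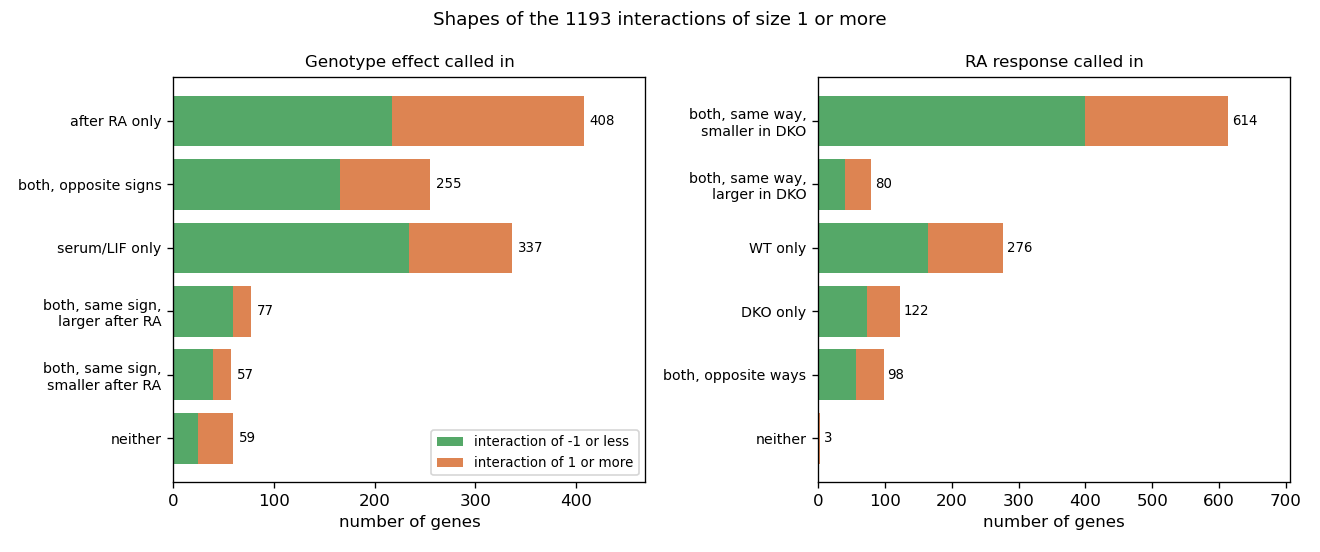
Number of genes in each shape among the 1193 called interactions of size 1 or more, sorted by where the genotype effect was called (left) and where the RA response was called (right). Bars are stacked by the sign of the interaction, and the number at each bar is its total, such as 408 genes with a genotype effect after RA only and 614 with a smaller RA response in DKO.

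Dbx1 is an example of a genotype effect that was called only after RA. In serum/LIF it was at 1.91, 2.15 and 1.87 normalized counts in WT and 4.59, 2.35 and 4.51 in DKO. With RA it reached 1195, 1283 and 1116 in WT and 75.8, 69.8 and 104 in DKO. Both genotypes were near 0 before RA, and afterwards every WT library was above every DKO library by more than the spread within groups. The RA rise was 606-fold in WT and 21.8-fold in DKO, and the interaction was −4.51 ± 0.44 (limma adjusted p = 3.13e-08).

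Fabp7 is an example of a genotype effect that changed sign. WT stayed level, at 76.4, 62.3 and 74.8 normalized counts in serum/LIF and 55.8, 84.3 and 70.0 after RA (RA response −0.04, adjusted p = 0.901). DKO started higher, at 342, 358 and 229.8, and ended at 7.58, 9.18 and 5.37. The DKO libraries were above all WT libraries in serum/LIF, 4.35-fold by the means, and below all of them after RA, 9.49-fold by the means. The interaction was −5.18 ± 0.37 (limma adjusted p = 1.43e-10). It was the most negative among called genes whose highest group averaged 100 or more, with predicted genes (Gm, Rik and LOC names) left out.

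Tfcp2l1 and Etv5 changed sign the other way. Tfcp2l1 was at 4839.6, 4699 and 4402 normalized counts in WT and 2409, 2306 and 2361 in DKO in serum/LIF, and at 494, 456 and 502 against 922, 874 and 965 after RA. Groups did not overlap in either condition, with DKO the lower group in serum/LIF and the higher one after RA. RA lowered it 9.60-fold in WT and 2.56-fold in DKO (interaction 1.90 ± 0.08, adjusted p = 3.39e-14). Etv5 was at 15822, 15730.5 and 14962 in WT and 11109, 10855 and 11052 in DKO in serum/LIF, and at 303, 251 and 251 against 785, 804 and 731 after RA. It fell 57.8-fold in WT and 14.2-fold in DKO (interaction 2.02 ± 0.09, adjusted p = 2.07e-14).

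Nlrp4a lost its genotype difference with RA. In serum/LIF it was at 232, 215 and 175 normalized counts in WT and 6.88, 7.04 and 4.51 in DKO. After RA, WT libraries at 12.6, 32.1 and 21.5 overlapped DKO libraries at 8.53, 14.7 and 12.5, and the genotype effect did not pass (−0.78, adjusted p = 0.111). RA lowered it 9.39-fold in WT, while in DKO it rose 1.94-fold with an adjusted p of 0.0495, close to the threshold. The interaction was 4.10 ± 0.55 (limma adjusted p = 3.11e-06), the most positive among called genes at that level, with predicted genes again left out. Reads of the Nlrp4 copies may be split between near-identical genes, so the share of each copy is uncertain.

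**Figure D3:**
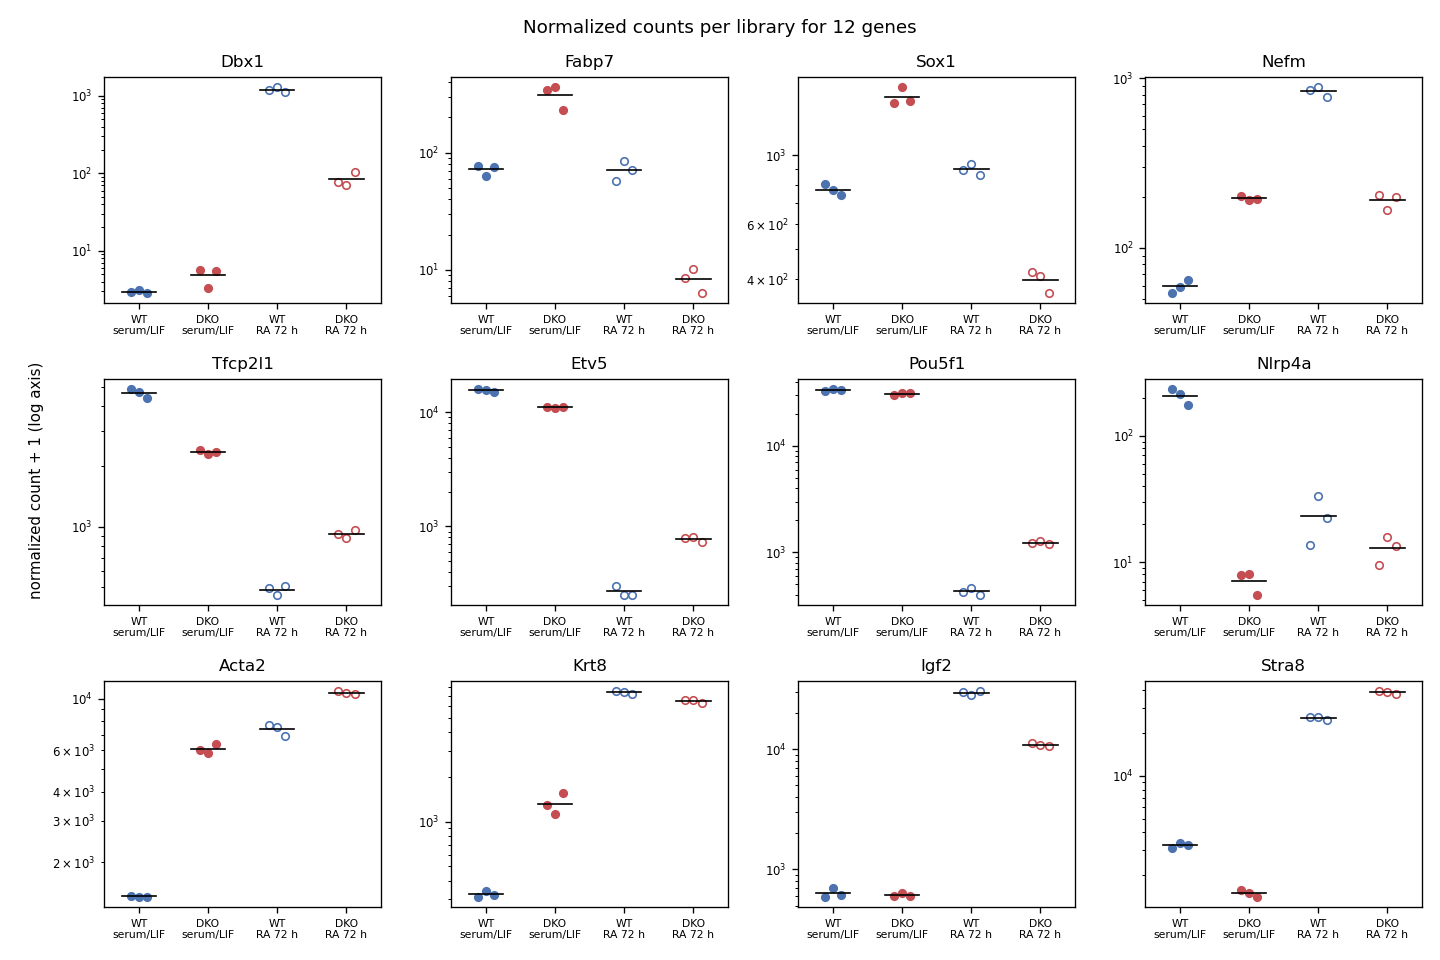
Normalized counts plus 1 (log axis) of 12 genes in every library, with WT in blue and DKO in red, filled for serum/LIF and open for RA, and a line at each group mean. Dbx1, Sox1 and Nefm end lower in DKO after RA, Tfcp2l1, Etv5 and Pou5f1 end higher, and Acta2 and Krt8 start higher in DKO in serum/LIF.

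Most pluripotency genes fell by a smaller factor in DKO. Of 20 naive pluripotency genes tested, 14 had a positive and 2 a negative interaction, with a median of 1.13 against 0.00088 over all genes. Over all genes tested 14.8% were positive and 16% negative, the shares to set beside the counts of every list. The lists were chosen with earlier results of these data known. Some hold genes given with the task, as this one holds Tfcp2l1, so list counts and medians are descriptions only. RA lowered 18 of the 20 in WT (39.2% of all genes tested fell) and 19 in DKO (38.2%), with median responses of −4.47 and −3.14. In serum/LIF 13 of the 20 were already lower in DKO and 1 higher, and after RA 13 were higher and 3 lower. Summed over the list, libraries held 129850 to 130361 normalized counts in WT and 105934 to 108248 in DKO in serum/LIF. After RA the sums overlapped, at 21430.6 to 22701.5 in WT and 22012.1 to 22423.3 in DKO. Of the 20, 8 changed the sign of their genotype effect, each of them lower in DKO in serum/LIF and higher after RA. The genes of general pluripotency leaned the same way, with 11 positive and 2 negative of 15 and a median of 0.61, and 10 of these 13 differed by genotype after RA only.

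Pou5f1, which encodes OCT4, was at 32602, 33912 and 33817 normalized counts in WT and 30343, 31174 and 31154 in DKO in serum/LIF, and at 419.7, 466 and 398 against 1220.2, 1270.1 and 1201 after RA. The genotypes did not pass in serum/LIF (−0.11, adjusted p = 0.0662) and stood apart in all libraries after RA. Its fall was 78.2-fold in WT and 25.1-fold in DKO, an interaction of 1.64 ± 0.07. Utf1, a chromatin factor gene of undifferentiated ES cells, fell 113-fold in WT and 34.3-fold in DKO (1.71 ± 0.10). Nanog fell 32.1-fold and 12.5-fold (1.36 ± 0.10), and Dppa3, a maternal factor gene that marks naive cells, 104-fold and 26.5-fold (1.95 ± 0.16). All of these were still far below their serum/LIF levels in DKO after RA, with Nanog at 1041 ± 88.0 against 13047 ± 297. The exceptions in the naive list were Tbx3 (−0.67 ± 0.10), a T-box factor gene, and Socs3 (−0.63 ± 0.06), which LIF induces as a brake on its own signal. Socs3 was lower in DKO in both conditions, and the difference grew after RA, from 4789 against 3483 normalized counts to 4339 against 2043.

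Formative and primed genes, which mark the state between naive cells and lineage choice, had no common sign, with 8 positive and 4 negative of 21 and a median of 0.02. Otx2 (2.46 ± 0.66), a homeobox gene of the formative state, and Lefty2 (1.52 ± 0.15), an antagonist of Nodal, fell less in DKO. Sox3 (−2.92 ± 0.18), a SOXB1 factor gene of neural progenitors as well, rose 10.0-fold in WT and 1.30-fold in DKO. Fgf5 (−1.96 ± 0.69) was higher in DKO in serum/LIF, at 118 against 17.7 normalized counts, and did not pass between genotypes after RA.

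Genes of FGF signalling, whose ERK branch drives exit from pluripotency, depended on genotype in 19 of 21 cases, 12 positive and 7 negative, with a median of 0.48. Spry4, an inhibitor of receptor tyrosine kinase signalling, fell 121-fold in WT and 27.2-fold in DKO (2.14 ± 0.21). Etv4, an ETS factor gene like Etv5, had 2.04 ± 0.13, and Fgf4, the ligand gene of ES cells, 1.86 ± 0.11. Il17rd, which encodes the feedback inhibitor SEF, fell 3.72-fold in WT and 1.42-fold in DKO, from 2964 ± 53.8 and 3893 ± 78.7 normalized counts to 798 ± 50.9 and 2743 ± 119 (1.39 ± 0.07). The genotype difference of Il17rd thus had the same sign in both conditions and grew after RA. Receptor genes had negative interactions, with Fgfr3 at −1.11 ± 0.24, Fgfr2 at −1.08 ± 0.09 and Fgfr1 at −0.26 ± 0.05, except Fgfr4 at 1.44 ± 0.24. The most negative member was Fgfbp3 (−3.21 ± 0.25), which encodes a secreted protein that binds FGFs.

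Neural genes showed the opposite picture. Of 23 genes of neural progenitors and radial glia, 20 had a negative interaction and 1 a positive one, with a median of −1.39. RA raised 18 of them in WT (41.4% of all genes tested rose) and 14 in DKO (40.2%), and lowered 2 in WT and 8 in DKO. Before RA 14 of the 23 were already higher in DKO and 2 lower, and after RA 5 were higher and 14 lower. Summed over the list, DKO libraries held 44678 to 45864 normalized counts before RA, against 35126 to 36838 for WT. After RA the DKO sums were 49247 to 49841, slightly below the WT sums of 50508 to 51554. The genotype effect changed sign in 8 of the 21 called members, from higher in DKO in serum/LIF to lower after RA in 7 of these, and Sox2 crossed the other way.

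Sox1, one of the first genes of the neural plate, was at 804, 774 and 744 normalized counts in WT and 1469.9, 1648 and 1495 in DKO in serum/LIF, and at 894, 938 and 863 against 421, 408 and 361 after RA. All DKO libraries were above WT before RA and below WT after it. RA raised Sox1 in WT (0.21, adjusted p = 0.0122) and lowered it 3.88-fold in DKO, an interaction of −2.17 ± 0.11. Hes5, an effector gene of Notch in progenitors, rose from 10.9 ± 5.81 to 502 ± 77.8 in WT and from 13.4 ± 4.44 to 63.3 ± 12.2 in DKO (−3.36 ± 0.50). The POU factor gene Pou3f2 rose 39.6-fold in WT and 3.77-fold in DKO (−3.28 ± 0.47). Neither Hes5 nor Pou3f2 passed between genotypes in serum/LIF.

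Other progenitor genes kept a higher level in DKO in both conditions while the gap narrowed. The intermediate filament genes Nes (−0.37 ± 0.06) and Vim (−0.41 ± 0.05) were of this kind, with Nes at 2561 and 4342 normalized counts in WT and DKO in serum/LIF and at 6933 and 9099 after RA. Pax6, a homeobox gene of neural progenitors, was lower in DKO in both conditions and was not called for the interaction (−0.17 ± 0.17).

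Factors that pattern the neural tube into domains were negative in 14 of 25 cases and positive in 2, with a median of −1.33. RA raised 16 of them in WT and 12 in DKO, with median responses of 3.02 and 0.83. Pax7, a paired-box gene of the dorsal tube, rose from 8.44 ± 2.49 to 165 ± 22.4 normalized counts in WT, while DKO libraries were at 17.1, 16.5 and 17.9 after RA and the DKO response did not pass (0.83, adjusted p = 0.0542). Its interaction was −3.33 ± 0.55. Irx3 (−1.50 ± 0.18), an Iroquois homeobox gene, was higher in DKO in serum/LIF (243 against 126) and lower after RA (2771 against 3993). The bHLH factor genes Olig2 (1.82 ± 0.60) and Olig3 (2.23 ± 0.43) were the positive members, and both fell with RA, to means of 20.2 normalized counts or less.

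Genes of neurons were negative in 17 of 26 cases and positive in 2, with a median of −1.15. Nefm, the gene of neurofilament M, was at 53.5, 58.0 and 63.6 normalized counts in WT and 202, 190.1 and 193 in DKO in serum/LIF, and at 854, 880.1 and 772 against 205, 166 and 199 after RA. It rose 14.3-fold in WT and was level in DKO (−0.04, adjusted p = 0.776), so that DKO was the higher group before RA and the lower after it. The interaction was −3.86 ± 0.19. Gap43, a growth cone protein gene, was at 285, 327 and 367 in WT and 1195, 1253 and 1410.4 in DKO in serum/LIF, and the groups overlapped after RA, at 727, 714 and 661 against 742, 752 and 678. RA thus raised Gap43 in WT and lowered it in DKO, to levels that did not pass between genotypes (−1.93 ± 0.13). The tubulin gene Tubb3 fell in both, 3.04-fold in WT and 6.81-fold in DKO (−1.17 ± 0.09).

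Snap25, a synaptic vesicle fusion gene, had one of the most negative interactions (−4.27 ± 0.81, adjusted p = 0.000279), but its WT level after RA rested on 1 library. The WT libraries were at 45.9, 293 and 48.4 normalized counts after RA, and replicate 2, the library with the high rRNA share, was the high one. Without it the interaction was −3.40 (adjusted p = 0.000838). The DKO libraries after RA, at 5.69, 3.67 and 7.16, were below all others.

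Neuronal targets of REST, which keeps neuronal genes silent outside neurons through CoREST, were negative in 12 of 22 cases and positive in 1. The median was −0.83, and −0.52 when replicate 2 of WT with RA was left out. The list shares 5 genes with the neuron list, Snap25, Nefm and Nefl among them. RA responses within it were mixed, with 10 rising and 8 falling in WT and 6 rising and 11 falling in DKO. Syp (−1.61 ± 0.33), the gene of synaptophysin, was higher in DKO before RA and lower after it, at 97.9 against 54.1 and 122 against 211 normalized counts. Stmn2 (0.63 ± 0.11), a regulator of microtubules, was the positive member.

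Of 17 subunit genes of CoREST tested, 3 were positive, 1 negative and 13 not called, beside 30.8% of all genes called, with a median of 0.0036 whose sign changed under 6 of 22 other settings. Gse1, a protein found with LSD1, rose 2.98-fold in WT and 4.33-fold in DKO (0.54 ± 0.06), and Ctbp2 (0.40 ± 0.06) and Phf21a (0.37 ± 0.08) were the other positive members. The interaction of Kdm1a, the LSD1 gene, was 0.11 ± 0.05 (adjusted p = 0.111), and that of Rcor1, the gene of CoREST itself, 0.0036 ± 0.07 (adjusted p = 0.977). Polycomb and trithorax genes had 9 positive, 7 negative and 24 not called of 40, none of size 1 or more, and the median of 0.03 changed sign under 1 of 22 other settings. Jarid2, a PRC2 cofactor gene, was at 20162 ± 319 and 14939.7 ± 202 normalized counts in WT and DKO in serum/LIF and at 5247 ± 109 and 6793 ± 145 after RA, so its genotype effect changed sign (0.80 ± 0.05). Cbx7, the CBX gene that prevails in ES cells, fell 1.25-fold in WT and 2.48-fold in DKO (−0.99 ± 0.06).

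Of 21 tested markers of fibroblasts and smooth muscle, 19 rose and 2 fell with RA in each genotype, and 15 were higher and 2 lower in DKO in serum/LIF. By interaction 14 were negative, 0 positive and 7 not called, with a median of −1.08, and all 14 had a smaller RA response in DKO. Acta2, the gene of smooth muscle actin, was at 1431, 1424 and 1421 normalized counts in WT and 6021, 5827 and 6363 in DKO in serum/LIF, and at 7709.8, 7539 and 6900.3 against 10718, 10515 and 10413 after RA. The groups did not overlap in either condition, and the RA rise was 5.18-fold in WT and 1.74-fold in DKO (−1.57 ± 0.06). The smooth muscle gene Tagln (−1.33 ± 0.06) and the collagen genes Col3a1 (−1.31 ± 0.11) and Col1a1 (−0.87 ± 0.07) narrowed in the same way. For Col1a2 (−1.52 ± 0.06) the gap of 4598 against 1686 in serum/LIF was gone after RA, at 10592 ± 209 against 11133 ± 500.1. Myl9 (−1.73 ± 0.17), a myosin light chain gene, was lower in DKO in both conditions, and more so after RA.

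Summed over the fibroblast list, libraries held 39713 to 42192 normalized counts in WT and 60996 to 66768 in DKO in serum/LIF, and 84359 to 88048 and 102596 to 104605 after RA. None of the 21 markers was at 0 in a group mean. The neural lists moved beside this one, and its part in their interactions was not tested.

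In the trophoblast list 7 of 18 were negative and 3 positive, with a median of −0.42. Krt8, a keratin gene of simple epithelia, was at 311, 339.5 and 322 normalized counts in WT and 1289, 1126 and 1548 in DKO in serum/LIF, and at 7499.9, 7443 and 7256 against 6571, 6566 and 6259.6 after RA. DKO was above WT before RA and slightly below it after RA, with no overlap, and the RA rise was 22.8-fold in WT and 4.90-fold in DKO (−2.21 ± 0.11). Its partner Krt18 (−1.57 ± 0.10) and Krt19 (−1.41 ± 0.12) did not pass between genotypes after RA. The positive members were Tfap2c (0.98 ± 0.12), a factor gene of trophoblast and germ cells, Gcm1 (1.11 ± 0.32), a factor gene of the placental labyrinth, and Elf5 (2.39 ± 0.87), a trophoblast stem cell factor gene whose highest group mean was 13.3 normalized counts.

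Of 24 endoderm genes 2 were positive and 5 negative (median −0.29), and of 23 mesoderm genes 3 were positive and 4 negative (median −0.16, whose sign changed under 1 of 22 other settings), both shares near the 30.8% of all genes called. The basement membrane collagen genes Col4a2 (−1.32 ± 0.07) and Col4a1 (−0.86 ± 0.06) rose by a smaller factor in DKO from a higher start. In normalized counts, not logs, Col4a1 gained more in DKO than in WT. Kdr, a VEGF receptor gene of vascular progenitors, rose from 62.5 ± 21.9 to 135 ± 40.2 normalized counts in WT and fell from 282 ± 17.6 to 110.1 ± 19.9 in DKO (−2.47 ± 0.33). Gata4 (1.91 ± 0.40), a factor gene of endoderm and heart, rose from 24.4 to 195 normalized counts in DKO and from 29.6 to 60.6 in WT. Bmp4, the ligand gene of mesoderm induction, was 2.82-fold lower in DKO in serum/LIF, and after RA the groups, at 94.7 ± 12.2 and 105 ± 16.1, did not pass (1.63 ± 0.19).

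Genes of RA handling and direct RA response did not share a sign. Of 27 tested, 7 were positive, 11 negative and 9 not called, with a median of −0.13. RA raised 24 of the 27 in WT and 23 in DKO, with similar medians of 4.21 and 4.35. Among receptors, Rarg differed most. It was at 6653, 6572 and 6754 normalized counts in WT and 4891, 5004 and 5261 in DKO in serum/LIF, and at 1132, 1205 and 1155 against 2739.9, 2671 and 2711 after RA. The groups did not overlap in either condition, and the order of genotypes was turned round (1.62 ± 0.06). Rara (0.56 ± 0.07) crossed in the same direction, whereas Rarb, which RA induces directly, rose 145-fold and 132-fold and was not called (−0.04 ± 0.46).

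Among enzymes and carriers, Cyp26a1 rose 273-fold in WT and 359-fold in DKO, to levels that did not pass between genotypes (interaction 0.39 ± 0.13, adjusted p = 0.0292). Dhrs3, a reductase gene that turns retinal back into retinol, rose 345-fold in WT and 102-fold in DKO (−1.75 ± 0.21). Stra6, the gene of a retinol transporter, reached 7669.5 ± 215 normalized counts in WT and 1583 ± 48.5 in DKO (−1.38 ± 0.18). The binding protein gene Crabp1 rose 2.99-fold in WT and 1.28-fold in DKO (−1.24 ± 0.14), and its relative Crabp2 was positive (0.26 ± 0.08). Stra6 and Crabp1 were lower in DKO before RA too, and the gap grew.

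Stra8, the RA-induced gene of entry into meiosis, was at 3119, 3339.5 and 3268 normalized counts in WT and 1562, 1496 and 1406 in DKO in serum/LIF, and at 25809.7, 25949.8 and 24602 against 39373, 39012 and 37800.4 after RA. DKO went from the lower to the higher group without overlap. Its rise was 7.85-fold in WT and 26.0-fold in DKO (1.73 ± 0.06), one of the less frequent larger responses in DKO.

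Hox genes, the best known RA targets along the body axis, had 4 positive, 4 negative and 24 not called of 32, beside 30.8% of all genes called. The median of 0.11 changed sign under 4 of 22 other settings. RA raised 28 of them in WT and 29 in DKO. Hoxb8 reached 7399, 7653 and 6761 normalized counts in WT and 3707, 4114 and 3898 in DKO from 21.1 or less in serum/LIF, and the RA groups did not overlap (−1.27 ± 0.21). Hoxb1 ended level, at 5949 ± 136 and 5636 ± 176, but started lower in DKO (27.8 ± 16.7 against 92.6 ± 7.25), which gave a positive interaction of 1.77 ± 0.44 (adjusted p = 0.0146). Positive Hox interactions (Hoxb1, Hoxa4, Hoxa3 and Hoxb2) were all of this kind, with a genotype effect called in serum/LIF only. Hoxd3 had 0 reads in all serum/LIF libraries, so its interaction of −1.96 ± 0.53 is its genotype difference after RA, at 762 ± 52.9 against 196 ± 29.2. Its interaction was not called by DESeq2 (adjusted p = 0.341) or edgeR (adjusted p = 1.00).

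Imprinted genes were negative in 11 of 23 cases and positive in 5, with a median of −0.26, beside 16% and 14.8% of all genes. Igf2, the growth factor gene read from the paternal allele, was level in serum/LIF, at 590.1, 699 and 614 normalized counts in WT and 596, 630.2 and 602 in DKO. It reached 29754, 28350.2 and 30259 in WT and 11309, 10893 and 10601 in DKO with RA. The groups overlapped before RA and were far apart after it (−1.37 ± 0.08). Igf2r, whose product clears IGF2, rose 1.56-fold in WT and fell 1.54-fold in DKO (−1.27 ± 0.06). Dlk1, a gene of a Notch-like ligand, rose 104-fold to 14162 ± 693 in WT and 13.2-fold to 1108 ± 60.7 in DKO (−2.96 ± 0.16). Plagl1, a zinc finger gene, crossed from higher to lower in DKO (−1.75 ± 0.08). Xist, the RNA that coats the inactive X, was the most positive at 2.31 ± 0.36, with 26.1 ± 8.73 normalized counts in WT and 214 ± 29.9 in DKO after RA. The setting for strand is not given in the sources used here, so reads of Igf2r and Xist cannot be told apart from those of antisense RNAs that overlap them.

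Genes of the p53 response, which act in arrest, repair and death after DNA damage, were positive in 14 of 20 cases and negative in 0, with a median of 0.35. Most of these changes were small, and 1 had a size of 1 or more. Plk2, a polo-like kinase gene, was at 1108, 1308 and 1231 normalized counts in WT and 2375, 2307 and 2315 in DKO in serum/LIF, and at 1745, 1830.4 and 1739.7 against 5314, 5197 and 5516 after RA. DKO was higher in all libraries of both conditions, and the gap grew (0.65 ± 0.08). Bbc3, the gene of the death-promoting protein PUMA, rose 2.12-fold in WT and 3.26-fold in DKO (0.63 ± 0.10), from levels that did not pass between genotypes.

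Proliferation genes were positive in 8 of 20 cases and negative in 1, none of size 1 or more (median 0.13), with Top2a at 0.33 ± 0.05. Of all genes tested, 14.8% were positive and 16% negative. ATF4 and stress genes had 5 positive and 2 negative of 22 (median 0.11), a share near the 30.8% of all genes called. Cholesterol synthesis genes had 5 positive and 7 negative of 22 (median −0.10). In the list of the aryl hydrocarbon receptor, a sensor of foreign compounds, 2 of 8 were positive and 2 negative, and the median of 0.23 changed sign under 1 of 22 other settings. Its target Cyp1a1 fell from 36.7 ± 2.01 to 10.0 ± 2.53 normalized counts in WT and was at 107 ± 8.82 and 115 ± 11.2 in DKO (1.90 ± 0.37). Cyp1b1, another target, rose from 367 to 4401 normalized counts in WT and from 434 to 2029 in DKO (−1.36 ± 0.09).

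**Figure D4:**
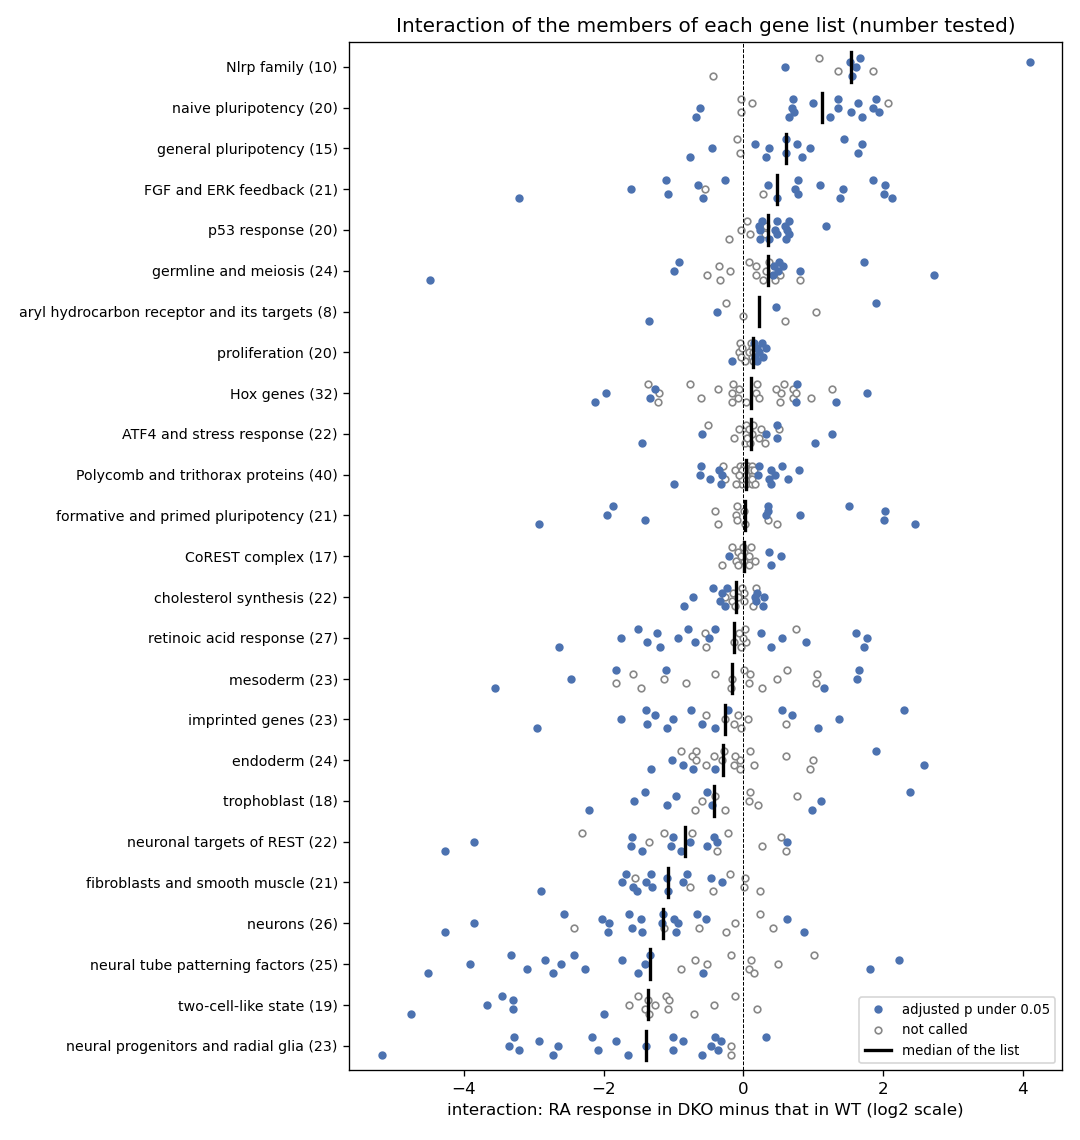
Interaction on the log2 scale of every tested member of 25 gene lists, with filled points for called genes, open points for those not called and a bar at the median of each list. Medians run from −1.39 in neural progenitors to 1.54 in the Nlrp family, against 0.00088 over all genes. The lists were chosen with earlier results of these data known.

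Genes of germ cells and the early embryo gave several of the largest values at low levels. In the Nlrp family 6 of 10 were positive and 0 negative (median 1.54). Nlrp9b was at 473 ± 5.42 (WT) and 45.5 ± 3.87 (DKO) normalized counts in serum/LIF and at 24.2 ± 2.75 and 8.02 ± 6.46 after RA (1.55 ± 0.57, adjusted p = 0.0402). Nlrp4f, level in serum/LIF, fell 6.67-fold in WT and 2.31-fold in DKO (1.53 ± 0.14). The two-cell-like state is a rare state of ES cells with transcripts of the 2-cell embryo. Its genes were negative in 6 of 19 cases (16% of all genes tested) and positive in 0 (14.8%), with 13 not called. The median was −1.37, and ran from −2.34 with a pseudocount of 5 to −0.67 with edgeR over 22 other settings. RA raised 18 of them in WT and 14 in DKO. After RA 18 of the 19 were lower in DKO and 1 higher, against 11 lower and 1 higher in serum/LIF. Over all genes tested 42.7% differed by genotype after RA and 33.2% in serum/LIF. Summed over the list, libraries held 590 to 784 normalized counts in WT and 453 to 500 in DKO in serum/LIF. After RA they held 6401 to 6637 in WT and 474 to 501 in DKO. Pramel39 went from 1.91, 2.15 and 1.87 to 222, 248 and 214 in WT, and had 0 reads in serum/LIF and 0, 1.84 and 7.16 normalized counts after RA in DKO (−4.75 ± 0.99, limma adjusted p = 0.000683). DESeq2 (adjusted p = 0.0959) and edgeR (adjusted p = 0.841) did not call it. Many members of both families have near-identical copies, so their reads may be split among copies.

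Germline and meiosis genes had 8 positive and 3 negative of 24 (median 0.35), beside 14.8% and 16% of all genes tested. Tex13b, a gene active in testis, was at 1.91, 2.15 and 0.935 normalized counts in WT and 227, 215 and 214 in DKO in serum/LIF, and at 141, 123 and 159.7 against 547, 544 and 506 after RA. DKO was higher in every library of both conditions. Its interaction was −4.48 ± 0.30 on the log2 scale, where WT started near 0. In normalized counts DKO gained 174 more than WT, so the sign depends on the scale.

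Such dependence on scale was limited to a minority. The count scale asks whether DKO gained or lost more normalized counts, and the log scale whether it did so by a larger factor. The sign was the same for 4625 of the 4852 called genes (95.3%) and for 1129 of the 1193 large interactions (94.6%). Of the 64 others, 47 were negative on the log scale and positive in counts. Peg10, an imprinted gene of retroviral origin and the most abundant case, rose 17.2-fold in WT and 8.05-fold in DKO (−1.09 ± 0.06), yet DKO gained 39809 more normalized counts. Krt19 (371), Col4a1 (65.4), Foxc1 (80.5), Slc24a3 (346) and Trdn (54.9) were likewise negative on the log scale and positive in counts. Hoxb2 (−740), Pecam1 (−66.6) and Usp26 (−2073) were positive on the log scale and negative in counts.

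Among the named genes outside the lists, Igfbp5, which encodes a binding protein of insulin-like growth factors, was at 233, 214 and 148 normalized counts in WT and 846, 809.8 and 798 in DKO in serum/LIF, and at 17834, 17031 and 19021 against 4969.8, 4958 and 5036 after RA. DKO was above WT before RA and below it after, with no overlap (−3.91 ± 0.18). Npy, the gene of neuropeptide Y, was at 125, 119.7 and 118 in DKO in serum/LIF and at 9.35 or less in every other library (−4.29 ± 1.03). Inhbb, which encodes the activin B subunit, fell from 669 ± 21.5 to 9.79 ± 4.22 in WT and from 204 ± 16.0 to 23.9 ± 2.20 in DKO (2.99 ± 0.34). Dpp4, a membrane peptidase gene, fell 13.8-fold in WT and 3.75-fold in DKO, and its gap narrowed from 4.81-fold to 1.30-fold (1.89 ± 0.18). Grin2c, a glutamate receptor gene, rose 3.89-fold in WT and 13.7-fold in DKO, where it reached 413 ± 27.5 (1.96 ± 0.49).

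Of 1170 repeat names tested 78 were called (6.67%), 33 positive (2.82%) and 45 negative (3.85%), and 13 had a size of 1 or more (1.11%), 4 positive (0.342%) and 9 negative (0.769%). Without replicate 2 of WT after RA 66 were called. The split of signs depended on scaling. With the size factors of the gene table in place of those of the repeat table, 42 were positive and 28 negative, and the median of all repeats moved from −0.0032 to 0.0824.

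The largest effect on an abundant repeat was in MERVL-int, the internal part of the endogenous retrovirus whose transcripts mark the two-cell-like state. It was at 2008, 1817 and 1631 normalized counts in WT and 1175, 1079 and 1158 in DKO in serum/LIF, and at 13516, 13136 and 13190.3 against 1402, 1296 and 1409 after RA. All DKO libraries were lower in both conditions, and RA raised it 7.30-fold in WT and 1.20-fold in DKO (−2.61 ± 0.08, limma adjusted p = 4.45e-18). MT2_Mm, its promoter repeat, rose 3.19-fold in WT and did not pass in DKO (−0.16, adjusted p = 0.0849), an interaction of −1.83 ± 0.10. Among other LTR elements, MMVL30-int, a VL30 retroelement, rose 12.4-fold in WT and 6.09-fold in DKO (−1.02 ± 0.06).

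GSAT_MM, the major satellite of the pericentromeres, was at 42.0, 32.6 and 41.6 normalized counts in WT and 79.2, 66.8 and 57.9 in DKO in serum/LIF, and at 204, 155 and 175 against 76.2, 40.3 and 46.6 after RA. DKO was above WT before RA and below it after, at low levels (−2.53 ± 0.31). The young LINE element L1Md_T had a positive interaction, rising 1.59-fold to 11544 ± 318 in WT and 2.25-fold to 20636 ± 595 in DKO (0.50 ± 0.06). L1Md_A was not called (0.06 ± 0.08). IAPLTR3-int, of the IAP retroviruses, fell 2.91-fold in WT and did not pass in DKO (1.86 ± 0.26). The simple repeat (ATAAG)n was −1.23 ± 0.07 on the log scale, but DKO gained 989 more normalized counts. Of 260 ERVK repeats, which include IAP elements, 13 were positive and 3 negative (median 0.10), and over all 557 LTR repeats 23 were positive and 22 negative. Over all repeats tested 2.82% were positive and 3.85% negative. Such splits depend on scaling, since the median of all repeats was 0.0824 with the size factors of the gene table.

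**Figure D5:**
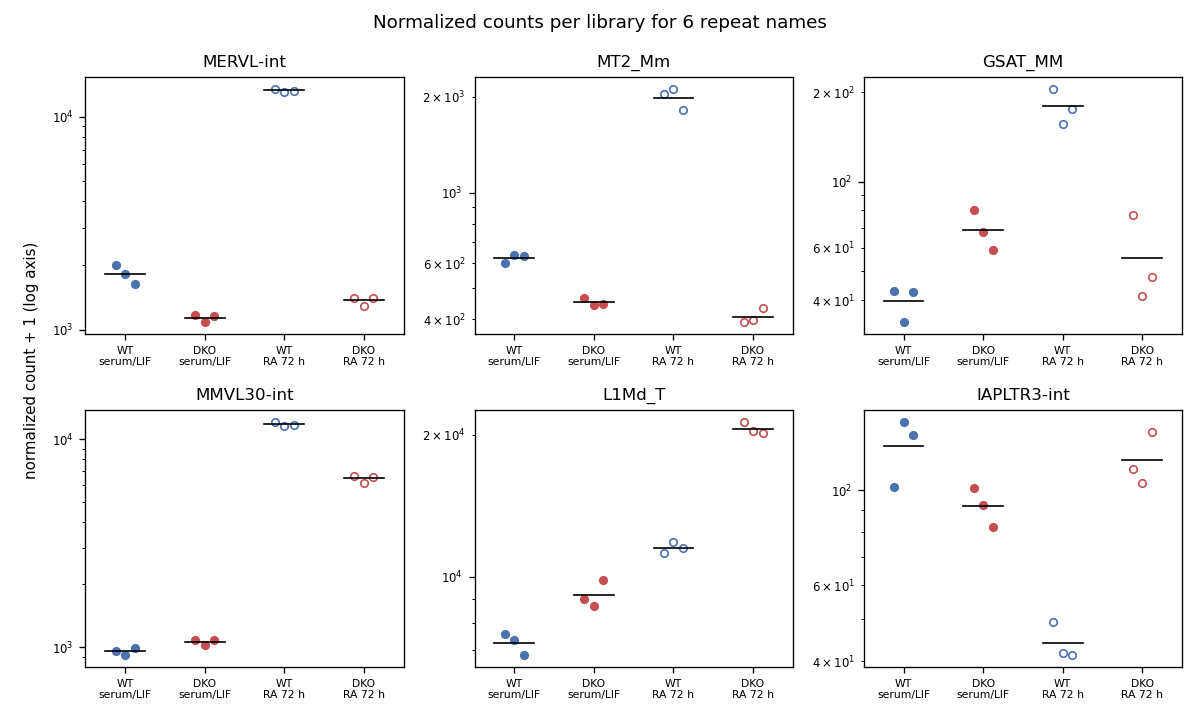
Normalized counts plus 1 (log axis) of 6 repeat names in every library, in the colours of the gene plots, with a line at each group mean. MERVL-int and MT2_Mm stand high in WT after RA alone, and L1Md_T is highest in DKO after RA, at 20636 normalized counts.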

How the data were processed

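RNA-seq of 12 TT2 libraries (4 groups of 3, per the labels) was analysed from 2 deposited tables, 1 of genes and 1 of repeat names. Per the submitters' processing notes, the tools were STAR 2.7.11b, Trim Galore 0.6.10, DESeq2 1.44.0 and featureCounts of Subread 2.0.6, with mm10. Whether counting used strand is not given in the sources used here. Per the series' labels, which call the molecule genomic DNA but describe extraction of total RNA, the libraries are RNA-seq. The deposited signal values are read counts divided by size factors, each table with its own. Whole reads were recovered from 100% of values within 0.01. In 1 column of each table (replicate 2 of WT with RA for genes, replicate 2 of DKO with RA for repeats) the size factor is so near 1 that this could not be checked independently. The count tests run as alternatives include both.

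Features needed a value of 10 in 3 libraries, which kept 15750 genes (2151 left out) and 1170 repeats (217 left out). One limma 3.58.1 fit (R 4.3.3; trend and robust) on log2(value + 1) with 1 mean per group gave the interaction and the simple contrasts, with Benjamini-Hochberg adjustment over all kept features. Fold changes on this scale understate changes of low genes, and folds printed as such are ratios of group means. The fit was tested on simulated data. Python 3.11.15 made the summaries.

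Genes were named by rule: the 2 targets; the 5 genes given with the task; the 12 largest interactions each way whose highest group averaged 100 or more; 4 each way per shape; and up to 4 called members of each of 25 lists, in all 136 genes, of which the text names a part. Predicted genes (Gm, Rik and LOC names) were left out of the rankings by size and by shape. Repeats were the 5 largest each way and 6 fixed names. Other list members named were chosen after their values were seen. The members and lists were chosen with earlier results of these data known. Alternatives were other pseudocounts (0.5 and 5), filters, scalings, plain limma, a replicate block, edgeR 4.0.16 and DESeq2 1.42.0 on recovered reads, and leaving out each library. No value rests on a column of another sample (0 such columns). One gene of the lists is not reported here by name.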

Additional observations from a re-analysis of the deposited data

Results flagged for a closer look

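The RA response was found to differ between WT and DKO by a test of the difference itself for 4852 genes and 78 repeats (limma, Benjamini-Hochberg adjusted p under 0.05). Given here are 8 named genes with an interaction of size 1 or more that moved in opposite directions, with both responses past the threshold. They are not all such genes, since 98 of the large interactions had this shape. Up in WT and down in DKO with RA were Gap43 (interaction −1.93), Igf2r (−1.27), Kdr (−2.47), Slc1a3 (−1.39), Snap25 (−4.27) and Sox1 (−2.17). Slc1a3, a glutamate transporter gene of radial glia and astrocytes, was at 556 and 1250 normalized counts in WT before and after RA and at 636 and 546 in DKO. Down in WT and up in DKO were Nlrp4a (4.10) and Xist (2.31). The Snap25 value is −3.40 without replicate 2 of WT after RA, and the DKO response of Nlrp4a passed with an adjusted p of 0.0495 in limma.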

How the results depend on the processing

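The count of called genes ran from 4053 (limma without trend and robust) to 5190 (DESeq2), against 4852, and from 4242 to 4778 when 1 library was left out; edgeR called 4985, of which 4764 were shared. With equal totals 42.2% of called genes were positive, against 48.0%. Large positive interactions ran from 400 to 477 and large negative ones from 649 to 740 when 1 library was left out. Called repeats then ran from 54 to 87. They fell to 47 under plain limma, with 25 negative and 2 of size 1 or more on the positive side, also 2 with a mean of 50 or more. With the gene table's size factors 28 repeats were negative and 42 positive, 60% positive against 42.3%; the cause was not tested. Among large interactions, genes with a genotype effect in neither condition numbered 38 with DESeq2, 37 with plain limma and 18 with a mean of 50 or more. That filter, which tests fewer genes, also left 251 with a genotype effect after RA only, 111 with an RA response in WT only and 59 in DKO only. Genes with an RA response in neither genotype numbered 5 with DESeq2, 1 with plain limma, 0 with a mean of 50 or more, 9 with no filter, 1 with a pseudocount of 0.5, and 1 to 10 when 1 library was left out.

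In differences of mean normalized counts, not logs, signs were reversed for Tex13b (173.9), Slc24a3 (345.6), Trdn (54.9), Hoxb2 (−739.7), Col4a1 (65.4), Pecam1 (−66.6), Foxc1 (80.5), Peg10 (39809), Krt19 (371.4), Usp26 (−2073) and (ATAAG)n (989.4), as the construction of a difference in place of a ratio allows. Of named genes and repeats, Wnt11 lost its call in 15 settings, IAPEz-int in 13, Pparg in 12 and Vwa3b in 10. Slc24a3 and Trdn lost theirs with a pseudocount of 5. Without the genes that have a group of 3 or fewer reads, a setting chosen after seeing the data, 430 positive and 686 negative large interactions were left.

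Libraries with the same replicate number showed only weak correlations of their deviations from group means (−0.03 to 0.05 over genes). Such values cannot exclude a pairing of libraries by number. With a replicate block 4662 genes, 4602 of them shared, and 73 repeats were called. Depth limits the low genes most: 77 large interactions have a group with 3 or fewer reads.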

Other observations

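Large interactions on the X chromosome leaned to the negative side, as they did over all chromosomes (739 negative and 454 positive). Of 579 genes tested there, 47 had an interaction of −1 or less and 9 one of 1 or more, together 9.67% of the genes, against 7.57% over all chromosomes. The X was not alone in this. Chromosomes 12 (24 negative and 6 positive), 3 (43 and 12) and 13 (40 and 12) leaned in a similar way. Chromosomes 6 (9.93%) and 18 (9.83%) had larger shares of large interactions. On chromosome 11 the lean was the other way, with 52 positive and 40 negative of 1325 tested. Chromosomes 17 (32 positive and 24 negative) and 4 (38 and 34) also leaned to the positive side. These counts were looked at after the values were seen, and no test was made of them.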
